A study of Mus musculus with 4 samples.

Results

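The genes of the mouse histone clusters were described in 4 RNA sequencing libraries of sorted leukemia cells. Members were taken by symbol, as genes named after the Hist1, Hist2, Hist3 or Hist4 cluster or carrying the newer names of the same genes. This gave 68 of the 45232 gene identifiers in the count files, namely 6 linker histone H1 genes, 20 H2A genes, 17 H2B genes, 12 H3 genes and 13 H4 genes. On GRCm38, 54 lie on chromosome 13, 10 on chromosome 3, 3 on chromosome 11 and 1 on chromosome 6. The pseudogene Hist1h2al carries a Hist1 name but lies at chr13:51202727-51203065, away from the other members on that chromosome.

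The cells were leukemic granulocyte-macrophage progenitors (L-GMPs), the cells of MLL-AF9 leukemia that resemble normal granulocyte-macrophage progenitors, and the labels call them primary leukemic stem cells. All 4 libraries came from secondary recipients of MLL-AF9 leukemia at the time of death, sorted as CD34+ CD16/32+ Sca-1+ c-Kit+ cells that were also GFP+ and tdTom+, and their RNA was amplified with SMARTer chemistry. The groups were Scr (libraries Scr 1 and Scr 2) and miR-99 KD (libraries KD 1 and KD 2). The comparison asks how the transcriptome of these cells differs when miR-99, a microRNA family, is reduced. Neither Scr nor KD is spelled out in the labels, which also do not say what GFP and tdTom report, and give no strain, age or sex. The design text counts 2 mice per group, but whether their leukemias came from separate donors is not stated, so p-values measure only the spread between these recipients.

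Histones are the proteins around which DNA is wound: H2A, H2B, H3 and H4 form the nucleosome core and H1 binds the DNA where it enters and leaves. Most cluster genes are replication-dependent, which means that they are transcribed in S phase and that their mRNA normally ends in a conserved stem-loop, bound by the protein Slbp, in place of a poly(A) tail. Some cluster genes also give polyadenylated transcripts, described mainly in cells that leave the cell cycle.

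Gene counts per library ran from 38458519 to 42674407. Scr 1 stood apart from the other libraries in these files, with 28573 genes detected against 21372 to 24038 and 51.9 CPM (a gene's count scaled to a common library total of gene counts) in olfactory receptor genes against 4.78 to 14.95. Without Scr 1, 26 of the 42 member genes tested below moved by over 1.5 times in log2 fold change or turned direction, 20 of them to a larger value, and where the log2 fold change of such a gene is printed, the value without Scr 1 is given too. The gate genes Kit (232 to 453 CPM), Cd34 (283 to 358 CPM) and Fcgr3 (370 to 482 CPM) were present in all libraries, while Ly6a, the Sca-1 gene, had 4 to 8 counts, which goes against that part of the labelled gate. The microRNA itself was not checked in these counts, since mature microRNAs are too short for such libraries.

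The stem-loop was searched for in the annotated transcripts, because it marks the 3' end that most of these mRNAs normally have. It was taken as 6 perfect pairs that open with a pair of G, around a loop of 4 bases with T at loop positions 1 and 3, on the strand of the transcript. It was found within 100 bases of the stop codon in 44 of the 49 cluster genes that have an annotated 3' UTR of at least 40 bases, and in 11 of 20890 other coding genes (0.0527%). The 5 without a match were Hist1h1a, Hist1h2bc, Hist1h2bq, Hist1h2br and Hist2h2be, and this says only that no such letters lie in that window. The 19 remaining members have a shorter 3' UTR, or none, in the annotation used. Capitals below mark the stem and lower case the loop, and the sequences are from GENCODE M21 transcripts.
Shared form, in 24 genes of H1, H2A, H2B and H3 such as Hist1h2ae (chr13:23570668-23570683, minus strand): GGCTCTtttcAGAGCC
Form with another loop, in 6 genes of H1, H2B and H3 such as Hist1h3e: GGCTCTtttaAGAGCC
H4 form, in 7 genes such as Hist1h4d (chr13:23581950-23581965, plus strand): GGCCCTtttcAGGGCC
H4 form with another loop, in Hist1h4i and Hist2h4: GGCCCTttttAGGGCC
H4 form with another stem, in Hist1h4b and Hist1h4j: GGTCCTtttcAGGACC
The stem differed by class: no H4 gene with a stem-loop shared its stem with a gene of another class. The stem began 21 to 58 bases after the stop codon, with a median of 31.5 bases. Of the 44 genes, 22 are annotated to run over 100 bases past the stem-loop and 22 to end within 100 bases of it. How the amplification was primed is not stated in the labels, so whether the counts come from transcripts that end at the stem-loop or from longer, polyadenylated ones was not tested.

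Counts of these genes also depend on sequence shared between copies, since the count files hold alignments that were not unique in a category apart from the genes. Of all 50-base stretches of a member's transcripts, the share found in no other gene's transcript on either strand was taken. It ran from 0% to 100% with a median of 44.0% over the 68 members. H1 genes were the most distinct, with a median of 98.9%, against 60.5% for H4, 50.3% for H2B, 38.0% for H3 and 26.8% for H2A. A gene annotated over the same place counts as another gene here, though reads from there can still align uniquely. Exons of every H2A gene overlap those of a gene on the opposite strand, while few genes of other classes have any such overlap. The order of classes therefore mixes copies and overlaps, and the part of each was not tested. In 5 genes, Hist2h2aa1, Hist2h2aa2, Hist2h2bb, Hist2h3b and Hist2h3c1, no stretch was unique, and each had 0 counts in every library. Exons of all 5 also overlap those of other annotated genes, and reads ambiguous between genes are likewise in a category apart. Whether copies or overlaps gave these counts of 0 was not tested. Hist1h2bq and Hist1h2br, with 2.68% and 11.3% of stretches unique, also had 0 counts. For these 7 genes a count of 0 says little about their level. The read length is not stated, so 50 bases is a yardstick and not the length of the reads.

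The filter on low counts kept 42 of the 68 members. Of the 26 others, 7 had no counts and 19 had a mean of at most 10.5 counts per library. They include the testis-type genes Hist1h1t (8, 1, 1 and 0 counts in Scr 1, Scr 2, KD 1 and KD 2, the order kept from here on), Hist1h2aa and Hist1h2ba (1 count each over all 4 libraries). Of the 42 kept, 5 (Hist1h2af, Hist1h2ao, Hist1h2bp, Hist1h3g and Hist1h3i) reached the filter's level of 0.237 CPM in both libraries only in miR-99 KD. These 5 are called kept through miR-99 KD alone from here on. The filter asks for that level in any 2 libraries. For Hist1h2af, Hist1h2ao and Hist1h3i, below it in both Scr libraries, a higher value in miR-99 KD was a condition of being kept. Hist1h2bp in Scr 1 (0.26 CPM) and Hist1h3g in Scr 2 (0.33 CPM) also reached it, so for these it was not a strict condition. No member reached it in both libraries only in Scr.

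Summed over all 68 genes, cluster histone transcripts held 191 CPM in Scr 1, 158 CPM in Scr 2, 230 CPM in KD 1 and 364 CPM in KD 2. Both KD libraries were above both Scr libraries, and KD 2 was the highest by a wide margin. The group means were 174 ± 23.5 CPM (SD, n = 2) and 297 ± 94.8 CPM, a ratio of 1.70. By class the ratios were 2.44 for H2A, 2.04 for H4, 1.63 for H1, 1.13 for H3 and 1.07 for H2B. For H1 the sums were 87.4, 71.98, 99.8 and 160 CPM, for H2A 18.8, 20.4, 38.9 and 57.0 CPM, and for H4 43.7, 35.7, 60.1 and 102 CPM, and in all 3 classes both KD libraries were above both Scr libraries. For H2B (31.8, 22.0, 24.2 and 33.6 CPM) and H3 (9.10, 7.40, 6.87 and 11.7 CPM) the groups overlapped. Differences between classes were not tested. Every H2A gene overlaps a gene on the opposite strand, and the strand setting is not stated, so their reads cannot be told apart. In these bulk samples a change in the share of cells that transcribe a gene and a change in the level per cell cannot be told apart.

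**Figure D1:**
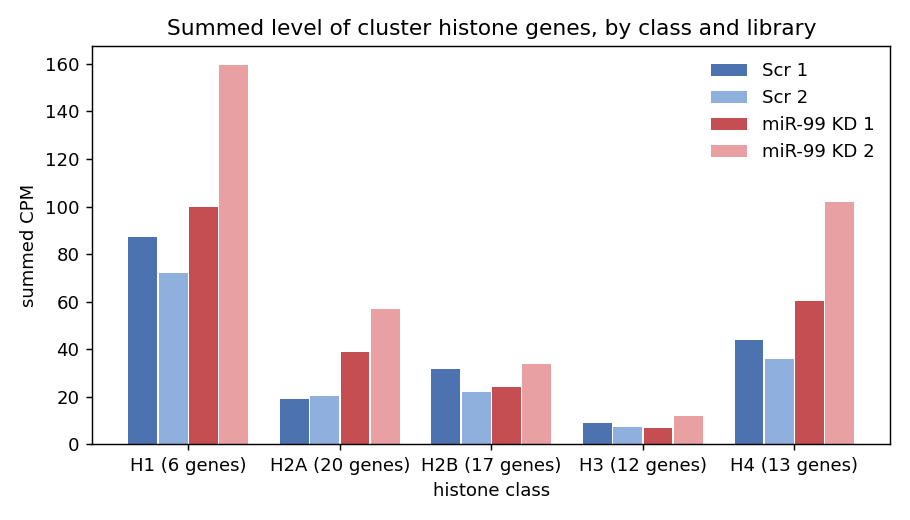
Summed CPM (y axis, from 0) of the cluster histone genes of each class (x axis) in each library, 1 bar per library. In H1, H2A and H4 both KD bars are above both Scr bars, while in H2B and H3 the bars of the groups interleave.

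Most of this difference in summed level lay in 4 genes. Hist1h1b, Hist1h1e, Hist1h2ae and Hist1h4d, chosen after their values were seen, held 39.8%, 50.1%, 59.7% and 61.3% of all cluster histone counts. The other genes together held 115, 78.6, 92.7 and 141 CPM, so without the 4 genes the groups overlapped.

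Gene by gene, the log2 fold change (miR-99 KD over Scr) was above 0 in 37 of the 42 members tested and below 0 in 5, and its median was 0.64 against -0.01 over all 15591 genes tested. In edgeR's quasi-likelihood test no member passed an adjusted p of 0.05, in a fit where 0% of all genes did. At an unadjusted p under 0.05, 11 members were higher, where 2.66% of all genes tested were higher, and 0 were lower, where 5.23% of all genes were lower. By class these 11 were 3 of 5 H1 genes tested, 5 of 11 H2A, 0 of 8 H2B, 1 of 8 H3 and 2 of 10 H4. They include Hist1h2ao and Hist1h3i, which the filter kept through miR-99 KD alone. DESeq2 called 3 members higher, Hist1h2ae (adjusted p 0.00113), Hist1h4d (0.0481) and Hist1h1b (0.0491), where it called 1.67% of all genes in either direction. Over the 24 members with a mean count of at least 50, a limit that does not look at the groups, 21 were positive and 3 negative with a median of 0.46. Over the 37 members that the filter did not keep through miR-99 KD alone, 32 were positive and 5 negative with a median of 0.49, and 9 of the 32 passed an unadjusted p of 0.05.

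On the log2 CPM scale with TMM factors, which rescale libraries to a common set of genes, both KD libraries were above both Scr libraries in 20 of the 42 members, where 18.9% of all genes tested were. The opposite held in 0 members, where 25.3% of all genes were lower in this way. In plain CPM the count was 16, where 12.7% of all genes were higher in this way, and Hist3h2a, Hist1h2bk, Hist1h3d and Hist1h4i were the members that overlapped there. The 5 members kept through miR-99 KD alone are among both counts, which are 15 and 11 without them.

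**Figure D2:**
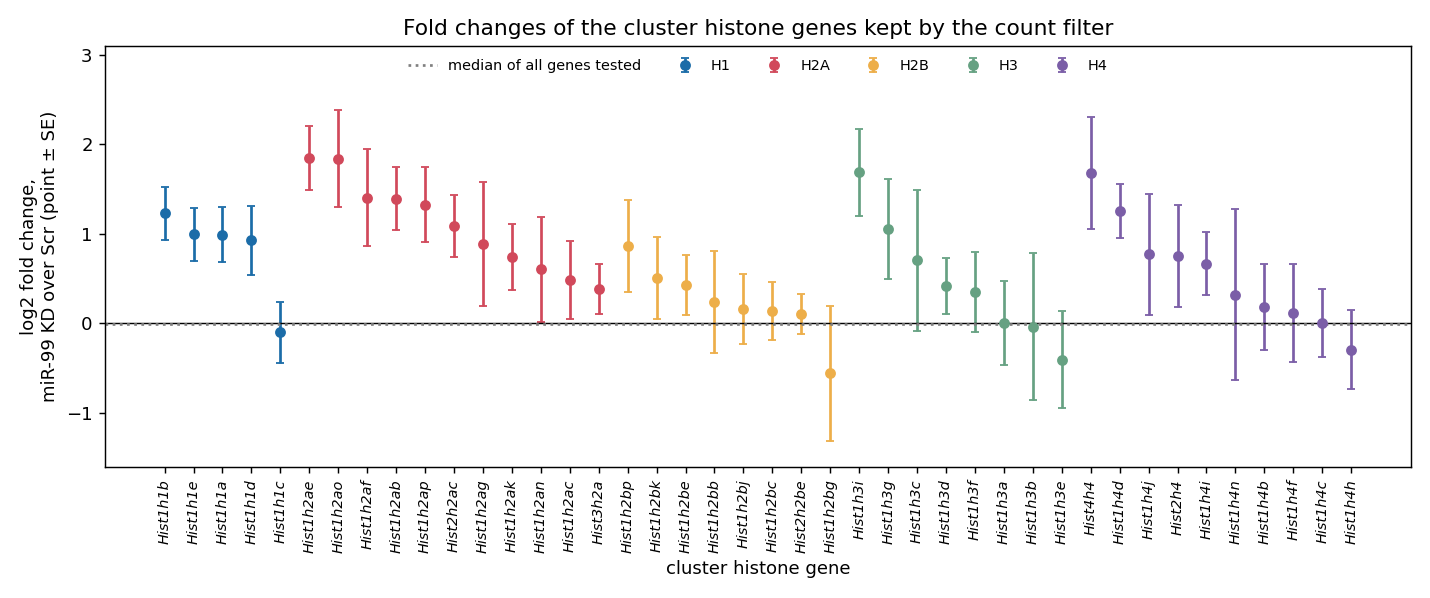
Log2 fold change of miR-99 KD over Scr with its SE (y axis) for the 42 cluster histone genes kept by the count filter (x axis), coloured by class, with the median of all genes tested as a dotted line. All 11 H2A genes and 4 of 5 H1 genes lie above 0, and the H2B genes range from -0.56 to 0.87.

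Among the linker histones, Hist1h1b, which encodes H1.5, had 22.3 CPM in Scr 1, 23.7 CPM in Scr 2, 39.8 CPM in KD 1 and 64.7 CPM in KD 2. Hist1h1e, which encodes H1.4, had 18.4, 19.3, 27.8 and 44.8 CPM. The Scr libraries were close to each other in both genes, the KD libraries were both higher, and the groups did not overlap. The log2 fold changes were 1.23 ± 0.30 (SE) for Hist1h1b (edgeR p 0.0118, adjusted p 0.529) and 0.99 ± 0.29 for Hist1h1e (p 0.0241, adjusted p 0.585). Hist1h1a, the H1.1 gene, had 3.04, 3.18, 4.78 and 7.17 CPM, and Hist1h1d, the H1.3 gene, had 5.07, 4.11, 5.74 and 11.1 CPM. These less abundant genes showed the same order of groups, with log2 fold changes of 0.99 ± 0.31 and 0.93 ± 0.38.

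Hist1h1c, which encodes H1.2 and is known to give polyadenylated transcripts, did not share this pattern. It had 38.4 CPM in Scr 1, 21.7 CPM in Scr 2, 21.6 CPM in KD 1 and 31.9 CPM in KD 2, so the groups overlapped and the highest value was in Scr 1. Its log2 fold change was -0.10 ± 0.34 (edgeR adjusted p 0.937) and turned to 0.36 without Scr 1. The 4 genes Hist1h1a, Hist1h1b, Hist1h1d and Hist1h1e together held 48.8, 50.3, 78.2 and 128 CPM. Exons of Hist1h1e overlap those of Hist1h2be on the same strand, and 68.0% of its stretches are unique, so reads from the shared parts cannot be told apart.

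In RefSeq's promoter windows, 250 bases before to 50 after the start, members of a class often held the same short motifs. Windows were matched for 59 of the 68 members, on GRCm38.p6. Searched on both strands were the CCAAT box (CCAAT), the TATA box (TATAAA), the octamer bound by Oct-1 (ATTTGCAT) and the H1 box (AAACACA), and in the windows printed here no match overlaps another. The H1 box was in 5 of 6 H1 windows and in 7.18% of all 32851 windows, and CCAAT was in every matched window of H1, H2A, H2B and H3, in 3 of 12 H4 windows and in 37.4% of all. The windows of Hist1h1b and Hist1h1e, whose values were higher in miR-99 KD, and of Hist1h1c, whose values overlapped, are printed to show that all 3 hold CCAAT and the H1 box. Capitals mark the motifs on either strand.
Hist1h1b (chr13:21780576-21780875, minus strand): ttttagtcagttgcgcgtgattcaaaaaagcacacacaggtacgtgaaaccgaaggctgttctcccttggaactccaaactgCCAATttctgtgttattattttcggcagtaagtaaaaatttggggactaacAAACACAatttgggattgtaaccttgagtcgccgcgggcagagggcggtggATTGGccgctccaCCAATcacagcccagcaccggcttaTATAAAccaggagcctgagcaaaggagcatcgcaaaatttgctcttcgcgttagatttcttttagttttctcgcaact
Hist1h1e (chr13:23622509-23622808, minus strand): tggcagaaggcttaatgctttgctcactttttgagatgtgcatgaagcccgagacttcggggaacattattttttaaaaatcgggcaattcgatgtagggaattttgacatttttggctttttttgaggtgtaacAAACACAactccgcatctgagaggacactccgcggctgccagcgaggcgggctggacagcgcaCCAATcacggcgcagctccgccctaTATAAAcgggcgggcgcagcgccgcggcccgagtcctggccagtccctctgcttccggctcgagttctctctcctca
Hist1h1c (chr13:23738557-23738856, plus strand): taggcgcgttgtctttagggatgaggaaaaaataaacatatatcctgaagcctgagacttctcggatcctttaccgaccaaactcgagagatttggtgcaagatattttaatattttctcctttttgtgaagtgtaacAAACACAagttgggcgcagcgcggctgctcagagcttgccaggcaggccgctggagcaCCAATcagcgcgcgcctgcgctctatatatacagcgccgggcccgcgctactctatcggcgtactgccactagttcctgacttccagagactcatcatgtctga
The windows of Hist1h1b and Hist1h1e also hold TATAAA, and that of Hist1h1c does not. Only these exact letters were searched for, so a variant of the TATA box in the Hist1h1c window would be missed. A match of letters is a description and not evidence of a site.

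Among the core histones, the 11 H2A genes tested had log2 fold changes with a median of 1.08, or 0.89 over the 9 that were not kept through miR-99 KD alone and 0.91 over the 6 with a mean count of at least 50. Hist1h2ae was the most abundant of them and had 6.71 CPM in Scr 1, 9.53 CPM in Scr 2, 22.5 CPM in KD 1 and 34.4 CPM in KD 2. Both KD libraries were above both Scr libraries, and the log2 fold change of 1.84 ± 0.36 was the highest among the members (edgeR p 0.00515, adjusted p 0.466). Without Scr 1, edgeR called Hist1h2ae (1.64, adjusted p 0.0429) and the H4 gene Hist4h4, in a fit that called 0.993% of all genes higher and in which the lone Scr library is assumed to vary like the other group. Hist1h2ab had 1.22, 1.67, 3.14 and 4.26 CPM (1.39 ± 0.35, p 0.0137, adjusted p 0.552). Hist2h2ac, on chromosome 3, had 1.17, 1.10, 1.80 and 2.85 CPM (1.08 ± 0.35).

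Other H2A genes had few counts. Hist1h2ap had 13, 18, 35 and 45 counts, with both KD libraries above both Scr libraries, and 6.93% of its stretches unique. Hist1h2ag had 13, 31, 24 and 60 counts and Hist1h2an 12, 27, 23 and 38 counts, and in both the groups overlapped. Hist1h2ao (4, 7, 18 and 23 counts) and Hist1h2af (5, 7, 13 and 20 counts) were kept through miR-99 KD alone. Hist3h2a, an H2A gene of chromosome 11 whose annotated transcript runs 1643 bases past the stem-loop, had 5.46, 3.51, 5.46 and 5.71 CPM (0.38 ± 0.28, and 0.73 without Scr 1). Hist1h2ac, which runs 2010 bases past it, had 1.64, 0.96, 1.27 and 2.21 CPM, and the groups overlapped (0.49 ± 0.44, and 0.92 without Scr 1). Over all classes, the 17 tested members that run over 100 bases past the stem-loop had a median log2 fold change of 0.49. The 17 that end near it had 0.51. Only the latter include members kept through miR-99 KD alone, namely Hist1h2ao, Hist1h2bp and Hist1h3g. These raise that median, so the 2 medians are not a like comparison, and the difference was not tested.

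No H2B gene passed an unadjusted p of 0.05. Hist2h2be had 9.08, 7.81, 8.06 and 9.38 CPM, and Hist1h2bc had 9.83, 6.21, 6.87 and 9.95 CPM. These are, with Hist1h1c, genes described to give polyadenylated transcripts, and in all 3 the groups overlapped. The log2 fold changes were 0.10 ± 0.22 for Hist2h2be and 0.13 ± 0.32 for Hist1h2bc, with edgeR adjusted p of 0.898 and 0.910, and were 0.22 and 0.50 without Scr 1. Hist1h2be had 6.45, 3.68, 5.74 and 7.27 CPM (0.43 ± 0.33, and 0.88 without Scr 1). Hist1h2bp, at 6 to 16 counts and kept through miR-99 KD alone, had the smallest p of the class (0.87 ± 0.52, p 0.162). The class median was 0.20 over 8 genes, and it turned to -0.11 without KD 2.

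H2A and H2B genes often lie as divergent neighbours that share the stretch between their starts. Of the members, 13 such pairs have annotated starts within 1000 bases, and in 5 pairs both genes were tested. The H2A gene had the higher log2 fold change in 4 of these 5. Hist1h2ae and Hist1h2bg, 175 bases apart, had 1.84 ± 0.36 and -0.56 ± 0.75, and Hist2h2ac and Hist2h2be, 238 bases apart, had 1.08 ± 0.35 and 0.10 ± 0.22. Hist1h2bg had 73, 25, 18 and 50 counts, highest in Scr 1, so the groups overlapped, and without Scr 1 its value turned to 0.48. The pair Hist1h2an and Hist1h2bp went the other way, with 0.60 ± 0.59 and 0.87 ± 0.52, or 0.21 and 1.33 without Scr 1. The difference within pairs was not tested.
The window of Hist1h2ae, shown because it runs through this shared stretch into its neighbour, holds the octamer and TATAAA letters on the other strand and CCAAT on each strand, marked in capitals.
Hist1h2ae (chr13:23571171-23571470, minus strand): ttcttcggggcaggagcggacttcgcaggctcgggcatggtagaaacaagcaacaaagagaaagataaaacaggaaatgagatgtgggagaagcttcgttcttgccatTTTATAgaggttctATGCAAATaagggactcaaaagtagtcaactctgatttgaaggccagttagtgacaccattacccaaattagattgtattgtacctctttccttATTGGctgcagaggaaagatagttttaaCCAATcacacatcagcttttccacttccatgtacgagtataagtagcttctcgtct
The octamer was in 7 of 18 H2A and 5 of 13 H2B windows, against 1.74% of all windows. Windows of divergent neighbours can overlap, as those of Hist1h2ae and Hist1h2bg do, and the search covers both strands. A site in such a stretch is counted in both classes, here and for CCAAT and TATAAA, so these counts are not separate.

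**Figure D3:**
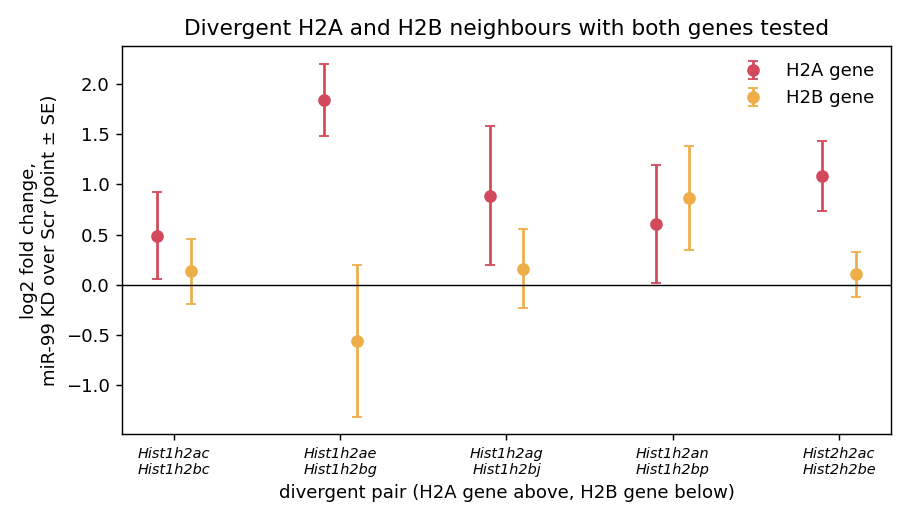
Log2 fold change of miR-99 KD over Scr with its SE (y axis) for the H2A and the H2B gene of the 5 divergent pairs in which both were tested (x axis). In 4 pairs the H2A point is above the H2B point, and the gap is largest for Hist1h2ae and Hist1h2bg.

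The H3 genes were low in these libraries, at 6.87 to 11.7 CPM in all. Hist1h3e had 3.74, 2.03, 1.22 and 2.94 CPM, Hist1h3d had 1.79, 1.29, 1.71 and 2.23 CPM, and Hist1h3f had 1.64, 0.79, 1.22 and 1.72 CPM. In plain CPM the groups overlapped in all 3. The log2 fold changes of Hist1h3d and Hist1h3f were 0.42 ± 0.31 and 0.35 ± 0.45, or 0.67 and 0.95 without Scr 1. Hist1h3e had a log2 fold change of -0.41 ± 0.54, which turned to 0.10 without Scr 1. Hist1h3i had 7, 5, 20 and 20 counts (1.69 ± 0.48, edgeR p 0.0214, adjusted p 0.580) and Hist1h3g 7, 14, 18 and 27 counts (1.05 ± 0.56). Both are among the members called kept through miR-99 KD alone. The class median was 0.38 over 8 genes and 0.18 over the 6 others.

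Among the H4 genes, which encode the same core protein, a single gene held most of the counts. The class median log2 fold change was 0.49 over 10 genes, and 1.07 without Scr 1. Hist1h4d had 28.4 CPM in Scr 1, 26.4 CPM in Scr 2, 47.0 CPM in KD 1 and 79.2 CPM in KD 2. The Scr libraries lay close together and the KD libraries were both higher, with a log2 fold change of 1.25 ± 0.30 (edgeR p 0.0112, adjusted p 0.520). Hist1h4i had 7.31, 5.04, 6.98 and 11.8 CPM (0.67 ± 0.35), and its groups overlapped in plain CPM. Hist4h4, the gene of chromosome 6, had 1.35, 0.43, 1.92 and 3.48 CPM (1.68 ± 0.63, p 0.0498), and without Scr 1 edgeR called it (2.71, adjusted p 0.0109). Hist1h4c (1.38, 1.17, 0.91 and 1.55 CPM) and Hist1h4h (1.85, 1.003, 0.84 and 1.36 CPM) overlapped between groups. Their log2 fold changes were 0.01 ± 0.38 and -0.30 ± 0.44, or 0.14 and 0.20 without Scr 1.
The window of Hist1h4d is printed as that of the highest H4 gene: it is 1 of the 3 H4 windows with CCAAT, here on the other strand, and also holds TATAAA.
Hist1h4d (chr13:23581318-23581617, plus strand): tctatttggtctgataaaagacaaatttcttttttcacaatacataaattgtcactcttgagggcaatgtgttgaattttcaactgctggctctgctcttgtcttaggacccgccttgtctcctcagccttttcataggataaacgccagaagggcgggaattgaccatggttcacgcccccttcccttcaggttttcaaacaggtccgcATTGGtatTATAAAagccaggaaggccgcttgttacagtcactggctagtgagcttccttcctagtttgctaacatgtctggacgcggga

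**Figure D4:**
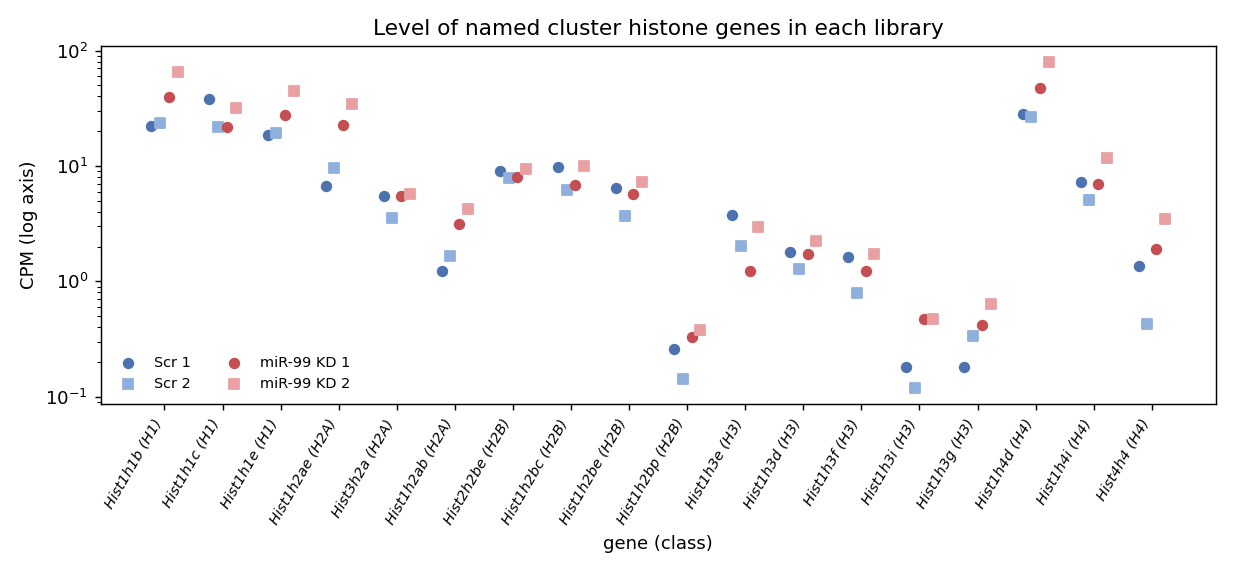
CPM on a log axis (y axis) of the named cluster histone genes (x axis, class in brackets) in each library, 1 point per library. Hist1h1b, Hist1h1e, Hist1h2ae, Hist1h2ab and Hist1h4d have both KD points above both Scr points, while Hist1h1c, Hist2h2be and Hist1h2bc do not.

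Per kilobase of annotated exon, Hist1h1b stood highest in the mean of each group, at 30.9 CPM per kb in Scr and 70.3 in miR-99 KD, followed in both by Hist1h4d (24.1 and 55.4). Below these the order differed between the groups. In Scr, Hist1h1c (19.3) came before Hist1h2ae (11.53) and Hist1h1e (9.77), and in miR-99 KD, Hist1h2ae (40.4) and Hist1h1e (18.8) came before Hist1h1c (17.1). Lengths are those of the annotation, which for Hist1h1b holds no 3' UTR, and unique sequence differs between genes, so these orders are a description of the counts.

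Histone genes outside the clusters were described beside the members. Most are replication-independent variants, transcribed through the cell cycle and polyadenylated. Of 10 tested from a list of 11, 8 were above and 2 below 0 in log2 fold change (median 0.30). At an unadjusted p under 0.05 in edgeR, 1 was higher and 1 lower, where 2.66% of all genes were higher and 5.23% lower. H2afy2, which encodes the macroH2A2 variant associated with silent chromatin, had 19.01, 20.9, 1.27 and 0.82 CPM. Both Scr libraries were far above both KD libraries, with a log2 fold change of -4.20 ± 0.35 (edgeR p 1.57e-04, adjusted p 0.204, DESeq2 adjusted p 2.00e-23). Its relative H2afy had 305, 1048, 1197 and 993 CPM and was low in Scr 1 alone (0.71 ± 0.65, and 0.12 without Scr 1). H2afx, the damage-marking variant, whose transcript also holds a stem-loop in the search above, had 147, 272, 382 and 489 CPM (1.09 ± 0.39, p 0.0437, adjusted p 0.621), lowest in Scr 1, and its log2 fold change was 0.74 without Scr 1 and 1.74 without Scr 2. H3f3b, which encodes the variant H3.3, had 888, 757, 688 and 1118 CPM (0.19 ± 0.26, and 0.32 without Scr 1).

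Of 19 genes for histone mRNA transcription and 3' end processing, 10 were above and 9 below 0 (median 0.04). At an unadjusted p under 0.05 in edgeR, 1 was higher and 0 lower, where 2.66% of all genes were higher and 5.23% lower. Slbp, the stem-loop binding protein, had 228, 205, 224 and 295 CPM (0.31 ± 0.18, edgeR adjusted p 0.701), and Cpsf3, the nuclease that cuts the pre-mRNA, had 286, 253, 219 and 243 CPM (-0.16 ± 0.14). Pou2f1, which encodes Oct-1, had 18.7, 18.9, 27.7 and 23.1 CPM (0.49 ± 0.22). The gene that passed was Tut4, a terminal uridylyl transferase that adds uridines to RNAs such as microRNA precursors. It had 2.08, 2.36, 13.8 and 22.1 CPM, low in both Scr libraries, and a log2 fold change of 3.06 ± 0.35 (edgeR p 5.79e-04, adjusted p 0.301, DESeq2 adjusted p 9.97e-11). Without Scr 1, edgeR called Tut4 (2.98, adjusted p 1.40e-05) and H2afy2 (-4.27, adjusted p 3.84e-14).

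Chaperones and S phase genes bear on histone supply and demand. Of 26 chaperone and chromatin assembly genes, 16 were positive and 10 negative (median 0.14). Past an unadjusted p of 0.05 in edgeR were 0, where 2.66% of all genes were higher and 5.23% lower in this way. DESeq2 called 0, where it called 1.67% of all genes. Among the 26, Nasp, a histone chaperone, had 127, 129, 149 and 185 CPM, and Rbbp4 had 637, 605, 656 and 810 CPM. Ssrp1, a subunit of FACT, had 623, 518, 513 and 377 CPM, and Mis18a, a factor for centromeric histone loading, had 85.9, 69.5, 91.7 and 136 CPM. Of 30 genes of S phase entry and DNA synthesis, 20 were positive and 10 negative (median 0.27). On the log2 CPM scale with TMM factors the KD libraries were both above the Scr libraries in 17 of the 30, where 18.9% of all genes were, and both below in 0, where 25.3% were. At an unadjusted p under 0.05 in edgeR, 1 of the 30 was higher and 0 lower, where 2.66% of all genes were higher and 5.23% lower. This gene was cyclin E2 (Ccne2), with 84.9, 74.5, 98.8 and 114 CPM (0.48 ± 0.16, edgeR p 0.0373, adjusted p 0.621). The polymerase subunit Pola1 had 109, 109, 147 and 134 CPM, the helicase subunit Mcm6 had 887, 997, 1012 and 1041 CPM, and the reductase subunit Rrm1 had 579, 564, 582 and 680 CPM. Summed over the 30 genes, the level was 6332, 6460, 7056 and 6987 CPM, a ratio of group means of 1.10 beside the 1.70 of the cluster histone genes. Without Hist1h1b, Hist1h1e, Hist1h2ae and Hist1h4d, the ratio of the cluster histone genes was 1.21, and the groups overlapped. The list of S phase genes and the members were not compared by a test.

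**Figure D5:**
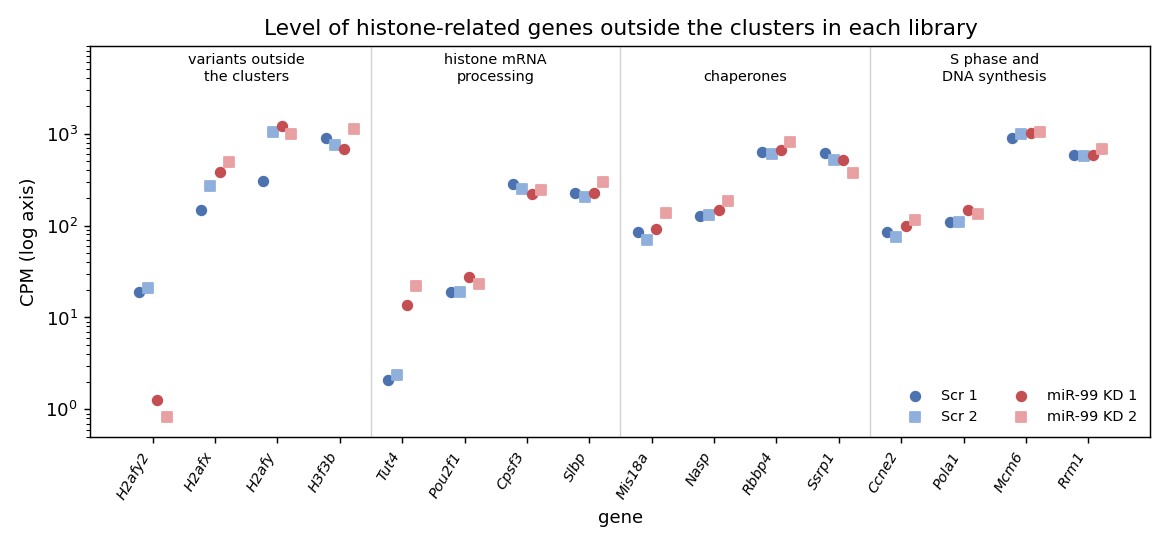
CPM on a log axis (y axis) of named histone-related genes outside the clusters (x axis, grouped by list) in each library, 1 point per library. H2afy2 has both KD points (1.27 and 0.82 CPM) far below both Scr points (19.01 and 20.9 CPM), Tut4 has the opposite order, and H2afy is low in Scr 1 alone.

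Other measures moved with the cluster histone sums. Of 14 granulocyte maturation markers 13 had a positive log2 fold change. Of these, 9 passed an unadjusted p of 0.05 in edgeR, where 2.66% of all genes were higher in this way. DESeq2 called 7 of the 14, where it called 1.67% of all genes. The summed level of the 14 was 6401, 4310, 11142 and 24517 CPM, with KD 2 again the highest. Of 9 monocyte and macrophage markers 7 were positive, at 2390, 2185, 2613 and 4000 CPM. The share of alignments that were not unique, the kind that keeps reads out of histone counts, was 19.8%, 19.3%, 20.1% and 23.6%. Kit, a gene of the sort gate, was 453, 424, 298 and 232 CPM (-0.67 ± 0.19, edgeR p 0.0208, adjusted p 0.580). The part of these in the histone values was not tested. Markers of other cell types were mostly at low levels. Of 11 erythroid markers (89.99, 114, 52.4 and 132 CPM in sum) 10 were tested, 4 of which were positive and 6 negative. On the log2 CPM scale with TMM factors 4 were lower in both KD libraries than in both Scr libraries, where 25.3% of all genes were. In the opposite order were 0, where 18.9% of all genes were. Among the erythroid markers, Slc4a1, the red cell anion exchanger, had 5.88, 17.4, 0.94 and 1.999 CPM (DESeq2 adjusted p 0.00464). Of 8 T and NK cell markers 3 were tested, and Nkg7 (164, 112, 151 and 159 CPM) held nearly all of the sum while Klrb1c had 1.30, 1.43, 0.26 and 0.24 CPM (DESeq2 adjusted p 0.0239). Of 6 B cell markers 3 were tested, and Cd79b (74.9, 59.95, 63.0 and 88.2 CPM) held nearly all of the sum. Of 9 stroma and endothelium markers 6 were tested, 1 positive and 5 negative with a median of -0.48. Pecam1 (122, 111, 149 and 135 CPM) held nearly all of that sum, and Sparc had 2.78, 2.05, 0.54 and 0.85 CPM (-1.74 ± 0.37, edgeR p 0.00712, adjusted p 0.467). No listed marker was at 0 in all 4 libraries. Without KD 2, the tested members had a median log2 fold change of 0.29.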

How the data were processed

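Gene expression was measured in 4 libraries, 2 labelled Scr and 2 labelled miR-99 KD. The authors deposited raw read counts for each Ensembl identifier (whole numbers with differing totals). The submitters' processing notes name STAR, Picard, HTSeq and DESeq2 and the build mm9, without roles. No version, strand setting or annotation release is stated there or in the labels, so reads of antisense neighbours cannot be told apart. The 5 categories that name no gene held 43.7% to 49.8% of entries and were left out. Symbols were paired with 44585 of 45232 identifiers. Coordinates and transcripts come from GENCODE M21 (GRCm38), matched on the identifier, with none converted.

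Groups were compared with edgeR 4.0.16 in R 4.3.3 by its quasi-likelihood test, two-sided, with group as the only term, TMM factors, the default filter at a minimum of 10 counts and p-values adjusted after Benjamini-Hochberg across 15591 genes. The script was tested on simulated data. The common biological coefficient of variation was 0.320. The SE of a log2 fold change was derived from this test, as its absolute value over the square root of the F statistic. Alternatives were DESeq2 1.42.0, limma 3.58.1 and the settings of the closing section. Members and lists were chosen with earlier results of these data known. Named members were, per class, the 3 with the highest mean CPM and the 2 with the smallest p, and also Hist1h1c, Hist1h2bc and Hist2h2be. From each related list the genes with the 2 smallest p and the 2 highest levels were named. Other members given with values were chosen after these were seen. A further 2 histone symbols of the name table were not analysed here.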

Additional observations from a re-analysis of the deposited data

Results flagged for a closer look

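The share of alignments that were not unique lies outside the gene counts, and in KD 2, a miR-99 KD library, it was 23.6% of all entries, above the 19.8% and 19.3% of the Scr libraries. In KD 1 it was 20.1%. The entries are not assigned to genes in the files, so how many fell on histone genes was not tested.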

How the results depend on the processing

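A count of 0 allows up to 0.0703 to 0.0780 CPM at this depth, for counting error only. The filter left 26 of 68 members untested, and how far depth or shared sequence set this was not tested. No member was called by edgeR, and 0 of 42 by limma-voom, while DESeq2 called 3 and edgeR without single libraries 0 to 2. Over all genes, edgeR called 0, but 23 with upper-quartile factors, 9 with library totals only, 9 with no filter on low counts and 261 by DESeq2, and 0 to 294 when 1 library was left out, the highest without Scr 1. Members higher at an unadjusted p under 0.05 numbered 11, against 7 with the stricter filter, which tests fewer genes, 5 with the replicate number as a block and 3 (without KD 2) to 9 when 1 library was left out, with 5 without Scr 2. The share of all genes at that p is given here for the main fit only. Whether the smaller counts are particular to the members was not tested. The count of lower members was 0 under every setting run. With no filter the median over all genes was -0.20. The cause of the other shifts was not tested.

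Medians ranged, when 1 library was left out, from 0.29 to 1.04 over all members tested, from 0.66 to 1.34 for H1, from 0.77 to 1.54 for H2A, from -0.11 to 0.59 for H2B, from 0.13 to 1.33 for H3 and from 0.21 to 1.08 for H4. The lowest values came without KD 2, except for H4, whose lowest came without Scr 2. The H3 value of 1.33 came without Scr 2. The filter was applied again each time, so the members tested differ. Over members with at least 50% of stretches unique, a choice made after seeing the data, the median was 0.46. Without the 5 members kept through miR-99 KD alone, also chosen after seeing the data, it was 0.49.

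Of 34 named genes tested, 4 reversed when 1 library was left out. Hist1h1c ranged from -0.36 to 0.36 and was positive without Scr 1 (0.36) or KD 1 (0.21). Hist1h2bc ranged from -0.11 to 0.50 and was negative without Scr 2 (-0.05) or KD 2 (-0.11). Hist1h3e ranged from -1.12 to 0.15 and was positive without Scr 1 (0.10) or KD 1 (0.15). H3f3b ranged from -0.15, without KD 2, to 0.54. The other 432 of 439 alternative values kept their direction, 11 of them passing the threshold. For H2afy2 these included upper-quartile factors (adjusted p 0.00802) and the crossed block (0.0148). Same-numbered libraries deviated from their group means in opposite directions (r -0.428 across genes), so the replicate block shares only a number between libraries. A block of crossed numbers, chosen after seeing this, gave 28 calls over all genes and 0 among the members.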
